A study of Mus musculus with 6 samples.

Results

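The 10 genes described here were chosen by name: Itgal, Itgam, Itgax and Itgb2 of the beta2 family, Itga4, Itga5, Itgav, Itgb1 and Itgb5 of the matrix and Vcam1-binding integrins, and Cd44. All 10 were found among the 54446 genes counted. Integrins are surface receptors made of an alpha and a beta chain that bind matrix proteins and counter-receptors on other cells and signal through talin, kindlin and Src family kinases. The beta2 chain is restricted to leukocytes and pairs with several alpha chains, while beta1 pairs with many alpha chains in most cell types. Cd44 is a separate receptor for the matrix polymer hyaluronan and anchors to the cytoskeleton through ezrin, radixin and moesin. In macrophages these receptors serve adhesion, migration, phagocytosis and contact with T cells.

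The cells were bone marrow-derived macrophages (BMDMs) of BALB/c mice aged 6 to 8 weeks, grown for 7 days in medium with 20% L929-conditioned medium, a source of Csf1. They were left unpolarized (M0) or polarized for 24 hours with IFN-gamma at 20 ng/mL and LPS at 50 ng/mL (M1) or with IL4 at 20 ng/mL (M2). Each state was studied with vehicle (DMSO, control) or with the multikinase inhibitor regorafenib at 1 µM. Regorafenib was added 1 hour before polarization in M1 and M2, and the sample records used here give no time for M0. There was 1 library for each of the 6 conditions and the labels name no animal or culture, so no value below has a replicate error. The error given is a 95% interval from counting alone, which leaves out the variation between cultures. In these bulk libraries, fewer cells of a type and less RNA per cell cannot be told apart.

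The libraries held 25359309 to 34898342 counts and no 2 of them were identical. Markers of macrophages (10 of 10 genes above 3 counts everywhere) summed to 22776 to 49678 CPM, counts per 1000000 TMM-scaled counts. The 6 M1 markers summed to 20345 CPM in M1 control and 15656 CPM in M1 regorafenib, against 14.7 to 82.8 CPM in the other libraries. Of these 6, Nos2 was lower with regorafenib in M1 (log2 ratio -0.79) and the other 5 were higher (0.16 for Il6 to 1.503 for Il12b). The 6 M2 markers summed to 1352 CPM in M2 control and 653 CPM in M2 regorafenib, against 20.2 to 34.6 CPM elsewhere. They split by direction with regorafenib in M2. Arg1 (log2 ratio -4.04), Mgl2 (-2.34) and Mrc1 (-0.53) were lower, while Ccl17 (3.63), Retnla (2.22) and Chil3 (1.22) were higher. No T and NK cell marker (8 genes) and no B cell marker (4 genes) exceeded 3 counts in any library. Of 9 neutrophil markers, Ly6g was at 0 in all libraries. The list summed to 110 CPM in M0, 210 CPM in M1 and 98.6 CPM in M2 control, and to 207, 134 and 146 CPM with regorafenib. These sums came mostly from Mpo and Mmp8, but in M1 control S100a8 (1804 counts) exceeded Mmp8 (1359). With regorafenib in M1, S100a8 had 489 counts. Fibroblast markers (7 genes) summed to 10.7 CPM in M0, 24.6 CPM in M1 and 10.02 CPM in M2 control, and to 22.3, 31.7 and 19.4 CPM in the same states with regorafenib, with 4 to 7 of the genes above 3 counts. In M0, Pdgfrb had 218 counts in control and 394 with regorafenib, Col1a2 46 and 188, and Col1a1 37 and 114, while Thy1 had 14 and 4. In M1, Dcn had 100 counts in control and 39 with regorafenib. Itgal, Itgax, Itga4 and Itgb5 were also higher with regorafenib in each state, and the part of fibroblasts in these differences was not tested. Platelet and megakaryocyte markers (5 genes) summed to 2.97 to 66.9 CPM, the highest in M1 control.

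The beta2 alpha chains of the set lie in 1 stretch of chromosome 7 on the plus strand (GRCm38): Itgal (CD11a) at chr7:127296260-127335138, Itgam (CD11b) at chr7:128062640-128118491 and Itgax (CD11c) at chr7:128129547-128150657. Itgam and Itgax are 11055 bases apart, and Itgal ends 727501 bases before Itgam. Itgb2 (CD18) lies at chr10:77530252-77565708. Of the other chains, Itga4 (CD49d) and Itgav (CD51) are on chromosome 2 at chr2:79255426-79333123 and chr2:83724397-83806916, and Itga5 (CD49e) is on the minus strand at chr15:103344286-103366763. Itgb1 (CD29) is at chr8:128685654-128733200, Itgb5 at chr16:33829665-33949338, and Cd44 on the minus strand at chr2:102811141-102901665. The counts came from reads over the annotated exons of each gene, UTRs included.

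Promoter sequences from RefSeq (GRCm38.p6) were matched for 8 of the 10 genes. They are shown for Itgax and Cd44, the 2 genes of the set that hold a STAT6-type motif (TTCNNNNGAA, searched on both strands and found in 5.85% of 32851 promoters) in their promoter entry (250 bases before to 50 after the start), because IL4 signals through Stat6. Of the 8 genes, Itgax, Cd44 and Itgb5 had their highest control level in M2 macrophages, and the entry of Itgb5 holds no such motif. The 250 bases before the RefSeq start, which for Itgax lies slightly inside the Gencode gene span given above, are printed on the gene's own strand, with the motif in capitals.
Itgax, chr7:128129300-128129549 (+): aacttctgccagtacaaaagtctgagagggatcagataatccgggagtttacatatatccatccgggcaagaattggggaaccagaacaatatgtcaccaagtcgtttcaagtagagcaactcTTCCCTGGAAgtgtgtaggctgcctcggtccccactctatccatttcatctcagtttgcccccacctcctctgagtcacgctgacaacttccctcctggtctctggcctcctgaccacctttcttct
Cd44, chr2:102901666-102901915 (-): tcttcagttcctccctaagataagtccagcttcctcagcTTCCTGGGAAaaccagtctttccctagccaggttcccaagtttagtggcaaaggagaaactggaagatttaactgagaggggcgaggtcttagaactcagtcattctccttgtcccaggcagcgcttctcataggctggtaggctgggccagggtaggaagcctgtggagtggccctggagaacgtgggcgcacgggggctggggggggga
A match is a description of these letters and no evidence of binding. The full CRE of Creb1 (TGACGTCA, both strands, 1.55% of promoters) was in none of the 8 entries. The PU.1 core (GAGGAA, 23.3%) was in 5, those of Itgav, Cd44, Itgam, Itgb1 and Itga5.

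Among the beta2 alpha chains, Itgal and Itgax moved furthest and in different states. Itgal, the alpha chain of LFA-1 that binds Icam1, stood at 105 CPM in M0 control, 877 CPM in M1 control and 34.5 CPM in M2 control. With regorafenib its level was 279 CPM in M0, 1321 CPM in M1 and 118 CPM in M2. Each regorafenib library was above the control library of its state, and both M1 libraries were above the other 4. The highest level was 38.3-fold above the lowest, the widest range of the 10 genes, and no counting intervals of neighbours in that order overlapped.

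Itgax, the alpha chain of complement receptor 4 and a common dendritic cell and macrophage marker, stood at 10.3 CPM in M0 control, 17.0 CPM in M1 control and 160 CPM in M2 control. In the regorafenib libraries it reached 13.7 CPM in M0, 27.8 CPM in M1 and 338 CPM in M2. Both M2 libraries lay above the other 4, and the regorafenib library was again the higher of each pair. Its full range was 32.8-fold. Dendritic cell markers (8 genes) summed to 1.33 CPM in M0, 32.7 CPM in M1 and 3.48 CPM in M2 control and to 0.940, 40.5 and 9.72 CPM in the same states with regorafenib. These sums did not follow the order of Itgax, but those of M1 came mostly from Ccr7 (780 counts in control and 827 with regorafenib). Batf3, like Itgax, was highest in M2, with 95 counts in control and 194 with regorafenib against 14 to 35 in the other 4 libraries. In M2, Zbtb46 had 15 counts in control and 59 with regorafenib, whereas Flt3, Xcr1 and Clec9a had 0 to 2 counts in the M2 and M0 libraries. Xcr1 had 36 counts in M1 control and 102 in M1 regorafenib. The part of dendritic cells in the Itgax level was not tested.

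Itgam, the alpha chain of Mac-1 (complement receptor 3), varied over 2.30-fold. Its level was 173 CPM in M0, 290 CPM in M1 and 217 CPM in M2 control, and 126, 268 and 130 CPM in the same states with regorafenib. The regorafenib library was the lower of each pair, opposite to Itgal and Itgax. Itgb2, the beta chain these alpha chains share, had the narrowest range of the 10 genes, 1.72-fold, from 908 CPM in M0 regorafenib to 1558 CPM in M2 control.

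**Figure D1:**
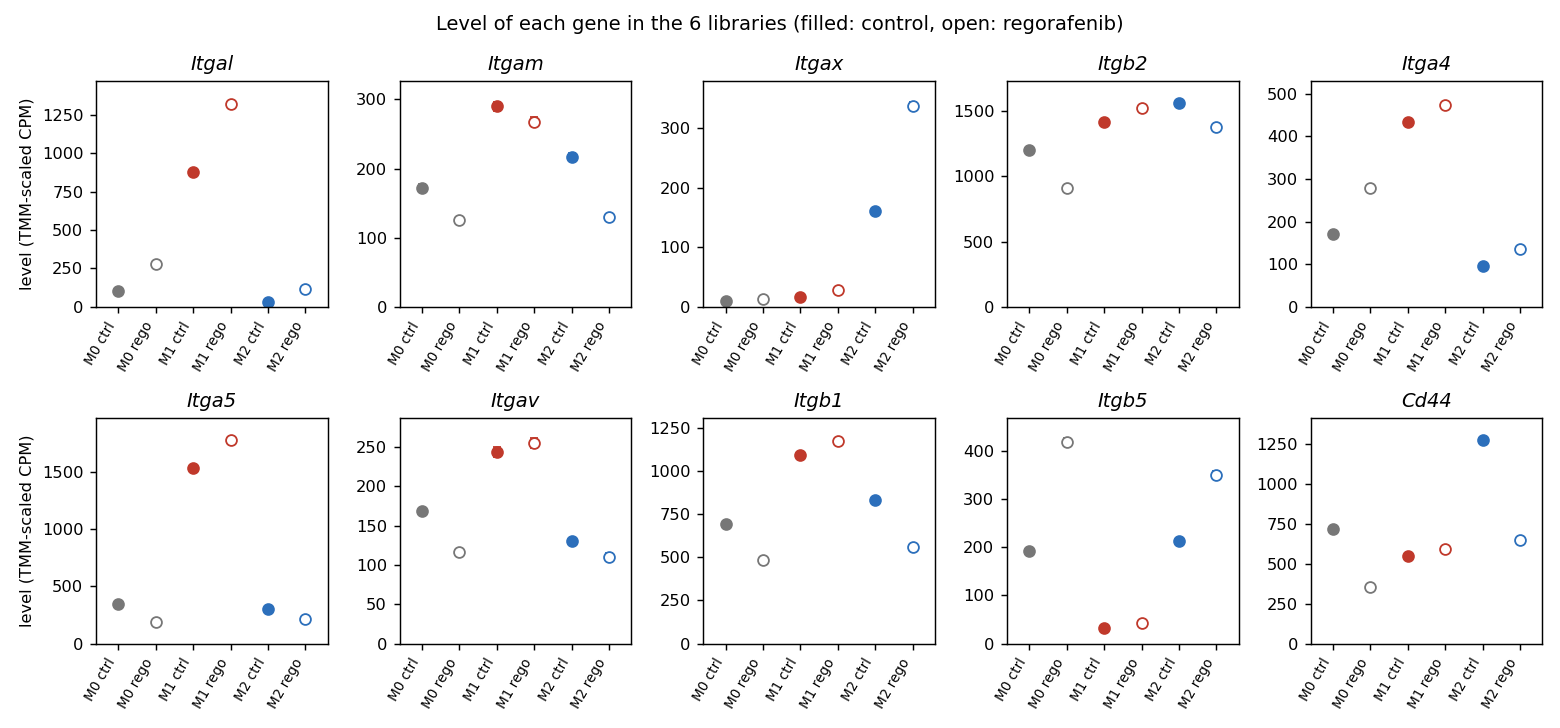
Level of each gene (vertical axis, TMM-scaled CPM, from 0) in the 6 libraries (horizontal axis). Each point is 1 library, filled for control and open for regorafenib, and bars, mostly within the points, are 95% counting intervals. Itgal was highest in the 2 M1 libraries, Itgax in the 2 M2 libraries, and Itgb5 lowest in the 2 M1 libraries at 31.6 and 42.5 CPM.

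Among the other integrin chains, Itga5 and Itgb5 took opposite courses. Itga5, the fibronectin receptor alpha chain, stood at 348 CPM in M0, 1532 CPM in M1 and 300 CPM in M2 control, and at 190, 1773 and 218 CPM with regorafenib. Itgb5, which pairs with Itgav to bind vitronectin and takes part in the uptake of apoptotic cells, stood at 191 CPM in M0, 31.6 CPM in M1 and 213 CPM in M2 control, and at 419, 42.5 and 350 CPM with regorafenib. The M1 libraries were thus the 2 highest of the 6 for Itga5 and the 2 lowest for Itgb5. Over the 6 libraries the log2 levels of the 2 genes had a Pearson r of -0.990, a description in which the 2 M1 libraries share one stimulus.

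Itga4, which with beta1 or beta7 binds Vcam1 and fibronectin, ranged 4.87-fold, from 97.2 CPM in M2 control to 473 CPM in M1 regorafenib. Its level was 171 CPM in M0 control, 279 CPM in M0 regorafenib, 434 CPM in M1 control and 135 CPM in M2 regorafenib, the same order of libraries as Itgal except that M0 control lay above M2 regorafenib. Itgb1, the common beta chain, ranged 2.41-fold, from 487 CPM in M0 regorafenib to 1175 CPM in M1 regorafenib. Itgav ranged 2.30-fold, from 111 CPM in M2 regorafenib to 255 CPM in M1 regorafenib. The counting intervals of the 2 M1 libraries overlapped for Itgav, as did those of M0 and M2 regorafenib.

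Cd44, the hyaluronan receptor, had its highest level in M2 control, at 1273 CPM. It was 718 CPM in M0 control and 548 CPM in M1 control, and with regorafenib 357 CPM in M0, 595 CPM in M1 and 649 CPM in M2. The M2 control library stood alone at the top, and the other 5 lay within 357 to 718 CPM.

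Per kilobase of exon, which allows genes to be compared, Itgb2 had the highest level of the 10 in every library (298 to 510 CPM per kilobase) and Itgax the lowest in M0 and M1 (2.14 to 5.78 CPM per kilobase). In M0 control the level of Itgb2 was 183-fold that of Itgax. In M2 regorafenib Itgax had moved from rank 10 to rank 5, while Itga4 was last. Itga5 ranked 4 in M0 control and 2 in M1 control, and Itgb5 went from rank 5 to rank 9 between these libraries. The Itgam level per kilobase is a low estimate, because 68.7% of its exon bases are also annotated, on the same strand, to the readthrough gene Gm49368 and reads over both genes are not counted for either. Gm49368 itself had 1 to 11 counts. With Itgam scaled to the exon bases it does not share, it ranked 3 in M0 control in place of 6, Itga5 and Itgb5 ranked 5 and 6 there, and Itgax ranked 6 in M2 regorafenib.

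The 3 alpha chains of Itgb2 made up different shares of their summed level per kilobase. In M0 control, Itgam held 65.5%, Itgal 30.4% and Itgax 4.09% of the sum. With regorafenib in M0 the share of Itgal was 60.4% and that of Itgam 35.6%. In M1, Itgal held 68.5% in control and 77.3% with regorafenib. In M2 control, Itgam held 52.8%, Itgax 40.8% and Itgal 6.42%, and with regorafenib Itgax held 61.7%, Itgam 22.6% and Itgal 15.7%. When Itgam was scaled to the 1574 exon bases it shares with no other gene on its strand, its share was larger throughout and it led in M0 regorafenib (63.8%), M1 control (57.4%) and M2 regorafenib (48.3%). On that scale too, Itgal had the larger share in the regorafenib library of each pair, and Itgax held 18.9% and 41.2% in the M2 libraries against at most 2.27% in the other 4.

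**Figure D2:**
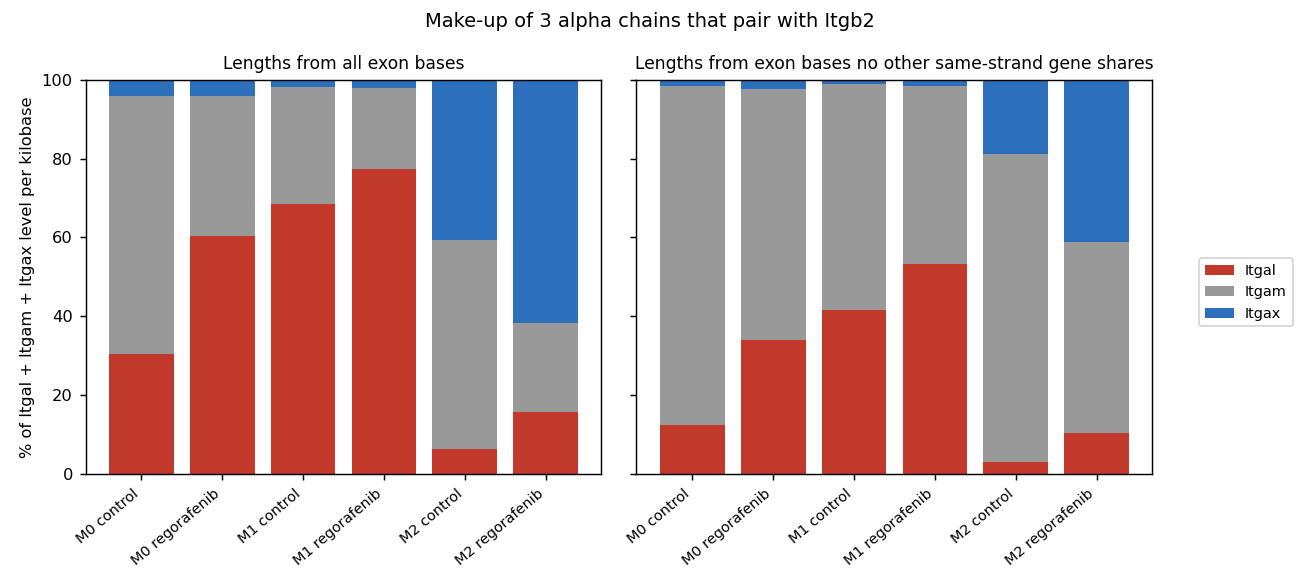
Shares (vertical axis, percent of the summed level per kilobase) of Itgal, Itgam and Itgax in each of the 6 libraries, with lengths from all exon bases on the left and from exon bases that no other same-strand gene shares on the right. The share of Itgal was largest in M1 regorafenib on both scales (77.3% and 53.3%), and that of Itgax in M2 regorafenib (61.7% and 41.2%).

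The first question of the design was how regorafenib altered each macrophage state. In M0, 2 of the 10 genes were at least 2-fold higher with regorafenib and 1 was at least 2-fold lower, where 9.47% of 13964 genes were 2-fold higher and 10.9% were 2-fold lower. Itgal was 2.67-fold higher (log2 ratio 1.42, interval 1.36 to 1.48) and Itgb5 2.19-fold higher (1.13, 1.08 to 1.17). Cd44 was 2.01-fold lower (-1.01, -1.04 to -0.98), at the edge of the threshold, and fell short of 2-fold when libraries were scaled by total counts. The median log2 ratio of the 10 genes was -0.43, beside 0.0050 for all genes. Below 2-fold, Itga4 (0.71) and Itgax (0.41) were higher with regorafenib and Itga5 (-0.88), Itgav (-0.54), Itgb1 (-0.51), Itgam (-0.45) and Itgb2 (-0.40) were lower.

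In M2, 2 of the 10 genes were at least 2-fold higher with regorafenib and none was 2-fold lower, where 6.15% of 13813 genes were higher and 5.07% were lower by that measure. Itgal was 3.41-fold higher (log2 ratio 1.77, interval 1.67 to 1.86) and Itgax 2.11-fold higher (1.08, 1.03 to 1.12). Just short of the threshold, Cd44 had a log2 ratio of -0.97 (-0.997 to -0.947). The log2 ratio of Itgb5 was 0.72 and that of Itga4 0.47, while Itgam (-0.74), Itgb1 (-0.56), Itga5 (-0.46), Itgav (-0.24) and Itgb2 (-0.18) were lower with regorafenib. The median of the 10 genes was -0.21, beside -0.031 for all genes.

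In M1, none of the 10 genes differed 2-fold in either direction, where 1.76% of 13440 genes were higher with regorafenib and 3.46% were lower. The 2 members furthest from 0 were Itgax at 0.71 (0.53 to 0.89) and Itgal at 0.59 (0.57 to 0.62). Itgb5 followed at 0.43, and the other 7 genes lay between -0.12 (Itgam) and 0.21 (Itga5). The median of the 10 genes was 0.12, beside -0.020 for all genes.

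All 10 genes had the same sign of the regorafenib ratio in M0 and M2. Itgal, Itgax, Itga4 and Itgb5 were higher with regorafenib and Itgam lower in all 3 states, while Itgb2, Itga5, Itgav, Itgb1 and Cd44 were lower in M0 and M2 and slightly higher in M1. The widest difference between states was that of Itgal, whose log2 ratio in M2 exceeded that in M1 by 1.18 (counting interval 1.08 to 1.27), and whose ratio in M0 exceeded that in M1 by 0.83. Cd44 and Itga5 differed the other way. The ratio of Cd44 in M1 exceeded that in M0 by 1.13 (1.08 to 1.18) and that in M2 by 1.09, and for Itga5 the ratio in M1 exceeded that in M0 by 1.09 (1.04 to 1.13). The ratios of Cd44 in M0 and M2 differed by 0.038, with a counting interval of -0.0025 to 0.079. With 1 library per condition, none of these differences could be tested against the variation between cultures.

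**Figure D3:**
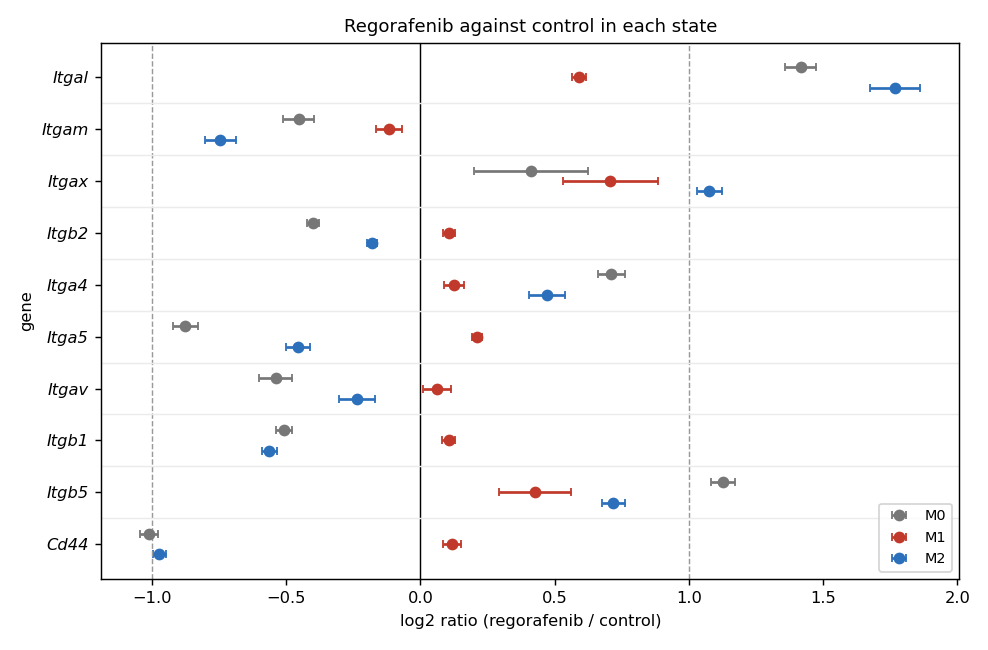
Log2 ratio of regorafenib over control (horizontal axis) for each gene (vertical axis) in M0, M1 and M2. Points are single pairs of libraries, bars are 95% counting intervals and dashed lines mark 2-fold, with Itgal furthest to the right in M0 (1.42) and M2 (1.77) and Cd44 furthest to the left (-1.01 and -0.97).

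A fit across all 6 libraries treated regorafenib and state as additive terms, so that the residual spread, on 2 degrees of freedom, was how far the drug response differed between states. By edgeR's quasi-likelihood test with Benjamini-Hochberg adjustment, 0% of 14110 genes passed an adjusted p of 0.05 for regorafenib, none of the 10 genes among them, with 1637 genes under an unadjusted p of 0.05. The lowest edgeR adjusted p among the 10 was that of Itgal (log2 fold change 1.27, SE 0.25, adjusted p = 0.31), followed by Itgax (0.75, SE 0.17, adjusted p = 0.32) and Itgb5 (0.78, SE 0.17, adjusted p = 0.32). DESeq2 called 296 of 13150 genes in the same design, and among the 10 genes it called Itgal (adjusted p = 0.0014), Itgb5 (0.022) and Itgax (0.041). Itgal was also called without the filter on low counts (edgeR adjusted p = 0.0098) and without the M1 libraries (0.040), so its call depends on the settings of the test and its direction does not.

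The second question was how polarization altered the same genes. M1 against M0 without drug, 3 of the 10 genes were at least 2-fold higher and 1 at least 2-fold lower, where 17.4% of 14168 genes were higher and 19.7% were lower. Itgal was 8.38-fold higher (log2 ratio 3.07, interval 3.01 to 3.12), Itga5 4.40-fold higher (2.14, 2.11 to 2.17) and Itga4 2.54-fold higher (1.35, 1.30 to 1.39). Itgb5 was 6.06-fold lower (-2.60, -2.71 to -2.49). The other log2 ratios ran from -0.39 (Cd44) to 0.75 (Itgam), and the median of the 10 was 0.69 beside -0.046 for all genes. Scaling by total counts in place of TMM moved the median of all genes by -0.44 in this comparison, changed the share of higher among all genes past 2-fold from 46.8% to 30.3%, took Itga4 below 2-fold and turned Itgb2 from 0.24 to -0.20.

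The additive fit called 36.7% of 14110 genes between M1 and M0, and 8 of the 10 genes passed. Itgal (log2 fold change 2.75, edgeR adjusted p = 0.0024), Itga5 (2.75, adjusted p = 0.0022), Itga4 (1.11, adjusted p = 0.0091), Itgb1 (1.04, adjusted p = 0.020), Itgam (0.99, adjusted p = 0.013), Itgax (0.92, adjusted p = 0.019) and Itgav (0.89, adjusted p = 0.017) rose. Itgb5 fell by 2.89 on the log2 scale (edgeR adjusted p = 0.00086). Itgb2 (0.55, adjusted p = 0.10 by edgeR) and Cd44 (0.27, adjusted p = 0.56 by edgeR) did not pass. Without the M2 libraries Itgax no longer passed (edgeR adjusted p = 0.056). The libraries compared differ in stimulus and are single cultures as far as the labels tell, so these p-values set the change against how far the drug response differed between states and not against the variation between cultures.

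M2 against M0 without drug, 1 gene was at least 2-fold higher and 1 at least 2-fold lower, where 4.69% of 13830 genes were higher and 7.61% were lower. Itgax was 15.6-fold higher (log2 ratio 3.96, interval 3.80 to 4.13) and Itgal 3.03-fold lower (-1.60, -1.70 to -1.51). Cd44 was at 0.82 (0.80 to 0.85) and Itga4 at -0.81 (-0.87 to -0.75), and the remaining 6 genes lay between -0.37 (Itgav) and 0.38 (Itgb2). The median of the 10 genes was 0.21, beside 0.013 for all genes. In the additive fit 0.198% of 14110 genes passed between M2 and M0, and Itgax was the only one of the 10 (log2 fold change 4.30, SE 0.23, edgeR adjusted p = 0.0091). Itga4 (-0.93, edgeR adjusted p = 0.18) and Itgal (-1.40, edgeR adjusted p = 0.19) did not pass there but were called by DESeq2 (adjusted p = 0.0079 and 0.0024). DESeq2 called more genes in this contrast, 413 of 13604, against 28 by edgeR.

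The same contrasts among the regorafenib libraries gave the ratios that follow. They share their libraries with the drug comparisons and are given with no test. Between M1 and M0 with regorafenib, 6 of the 10 genes were at least 2-fold higher and 1 lower, where 16.3% of 14159 genes were higher and 21.6% were lower. The median of the 10 was 1.05. Itgb1 (1.27), Itgav (1.14), Itgam (1.09) and Itgax (1.02) passed 2-fold here and not between the controls (0.66, 0.53, 0.75 and 0.72), and Itga4 passed between the controls alone. Under total counts, which moved the median of all genes by -0.41 in this comparison, 2 of the 10 were higher and 1 lower. On that scaling 1680 of the 14159 genes were higher and 4378 lower. The ratios of Itgb1, Itgav, Itgam and Itgax were then 0.86, 0.72, 0.68 and 0.61. Between M1 and M0, Itga5 had a log2 ratio of 3.22 with regorafenib against 2.14 without, Itgb5 -3.30 against -2.60, Itgal 2.24 against 3.07 and Itga4 0.76 against 1.35. Cd44 was below M0 without drug (-0.39) and above it with regorafenib (0.74). Between M2 and M0 with regorafenib, 1 of the 10 was at least 2-fold higher and 2 lower, where 4.41% of 13841 genes were higher and 5.18% were lower. Itgax stood at 4.63 with regorafenib and 3.96 without, Itgal at -1.25 and -1.60, Itga4 at -1.05 and -0.81, and Cd44 at 0.86 and 0.82.

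**Figure D4:**
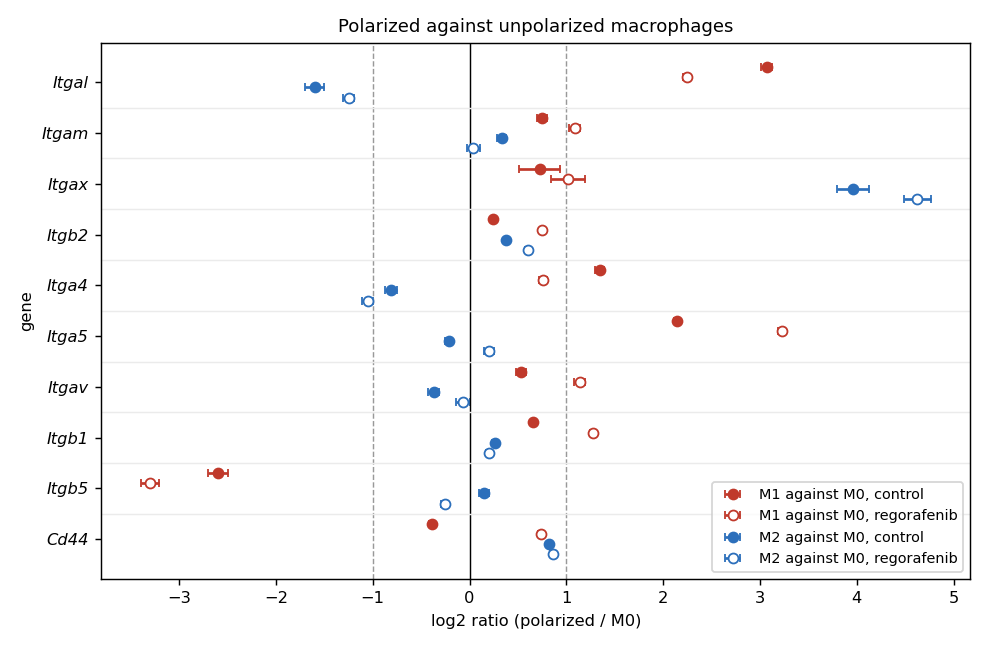
Log2 ratio of the polarized over the M0 library (horizontal axis) for each gene (vertical axis), filled for control and open for regorafenib libraries. Bars are 95% counting intervals and dashed lines mark 2-fold, with Itgax far to the right in M2 (3.96 and 4.63) and Itgb5 far to the left in M1 (-2.60 and -3.30).

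The other genes of the integrin and Cd44 systems give the setting of these values. Of 18 other integrin subunits, 11 had at least 10 counts in M0 or M1 control, and 3 of those were at least 2-fold higher and 6 lower in M1, where 17.4% of all genes were higher and 19.7% lower (median log2 ratio -1.09 beside -0.046 for all genes). Itgb8, a beta chain that pairs with Itgav and activates latent TGF-beta, had 6574 counts in M1 control and 1 count in M0 control (log2 counting interval 10.45 to 18.24). The partner chain Itgav differed by 0.53 in the same pair of libraries, and of the beta chains of the set that can pair with it, Itgb5 by -2.60 and Itgb1 by 0.66. Itgb3, a further partner of Itgav, was higher in M2 control (937 counts) than in M0 control (73 counts; log2 ratio 3.43). Itgb7, a partner of Itga4, differed by -1.59 in M1, where Itga4 was at 1.35, and Itga9, a relative of Itga4, by 3.98. Itga6, a laminin receptor chain, was lower in both states (-2.92 in M1 and -1.62 in M2), as was Itga8 (711 counts in M0 control, 14 in M1 and 33 in M2).

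With regorafenib, 2 of 11 other subunits were at least 2-fold higher and 1 lower in M0 (all genes 9.47% and 10.9%), 0 of 10 higher and 2 lower in M1 (1.76% and 3.46%), and 2 of 10 higher and 1 lower in M2 (6.15% and 5.07%). The collagen receptor chain Itga1 had 64 counts in M2 control and 263 in M2 regorafenib (log2 ratio 2.42), and 98 and 203 in M0 (0.95). Itga9 was lower with regorafenib in M1 (-1.26) and in M2 (-2.10). Between M2 and M0 controls, 3 of 10 were higher and 2 lower, beside 4.69% and 7.61% of all genes. The additive fit called 2 of 11 higher and 5 lower between M1 and M0, where it called 36.7% of all genes, and none for regorafenib or for M2.

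Among 21 integrin ligands, 12 had at least 10 counts in M0 or M1 control, and 6 were at least 2-fold higher and 3 lower in M1, beside 17.4% and 19.7% of all genes. Tenascin C (Tnc, 7.06), thrombospondin 1 (Thbs1, 6.99) and C3 (6.05), the source of the ligand of Itgam and Itgax with Itgb2, had the highest log2 ratios, and osteopontin (Spp1), a ligand of Itgav and Cd44, the lowest (-2.96). Icam1, the ligand of Itgal, had a log2 ratio of 0.79 with regorafenib in M1, the highest ligand value there, beside 0.59 for Itgal. With regorafenib, 4 of 12 ligands were 2-fold higher and 2 lower in M0 (all genes 9.47% and 10.9%), 0 of 12 either way in M1 (1.76% and 3.46%), and 2 of 13 higher and 1 lower in M2 (6.15% and 5.07%). C3 had log2 ratios of 1.07 in M0 and 2.56 in M2, fibronectin (Fn1) 1.20 and 1.19, and Spp1 -1.26 and -0.36. Between M2 and M0, 2 of 13 were higher and 2 lower (all genes 4.69% and 7.61%), led by Fn1 (2.30). In the additive fit 6 of 13 rose and 4 fell in M1, beside 36.7% of all genes called, and none passed for regorafenib or M2.

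Of 35 activators and adaptors that couple integrins to the cytoskeleton, 33 were measured between M1 and M0, with 6 at least 2-fold higher and 5 lower, beside 17.4% and 19.7% of all genes. The adaptor Bcar1 (5.66) and the kinase Src (4.10) were highest and Parvb lowest (-1.90) among those with 100 counts. With regorafenib, 0 of 33 were higher and 3 lower in M0 (all genes 9.47% and 10.9%), 0 of 32 either way in M1 (1.76% and 3.46%), and 1 of 31 higher and 1 lower in M2 (6.15% and 5.07%). Filamin A (Flna) had log2 ratios of -1.37 in M0 and -0.86 in M2, and talin 1 (Tln1), which binds beta chain tails, -1.04 in M2. The kinase Fgr was the one 2-fold higher in M2 (1.34). Between M2 and M0, 0 of 32 were higher and 3 lower (all genes 4.69% and 7.61%). The additive fit called 10 of 32 higher and 5 lower in M1, beside 36.7% of all genes called, and none for regorafenib or M2.

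Of 22 Cd44 ligands and partners, 15 were measured between M1 and M0, with 7 at least 2-fold higher and 2 lower, beside 17.4% and 19.7% of all genes. Mmp14, a membrane protease that cleaves Cd44, had 35 counts in M0 control and 15213 in M1 control (log2 ratio 9.01), and Hmmr, a further hyaluronan receptor, was lowest (-4.51), while Cd44 itself was at -0.39. With regorafenib, 2 of 14 were higher and 2 lower in M0 (all genes 9.47% and 10.9%), 0 of 15 higher and 2 lower in M1 (1.76% and 3.46%), and 2 of 14 higher and 3 lower in M2 (6.15% and 5.07%). Cd74, which uses Cd44 as its signaling partner, had log2 ratios of 2.38 in M0, 2.19 in M2 and 0.60 in M1, where Cd44 was at -1.01, -0.97 and 0.12. Lgals9, a galectin that binds Cd44, was at -1.15 in M0 and -1.19 in M2, and the hyaluronan-binding proteoglycan Vcan at -1.06 in M1 and -1.29 in M2. Between M2 and M0, 1 of 14 was higher and 3 lower (all genes 4.69% and 7.61%). In the additive fit 9 of 15 rose and 2 fell in M1, beside 36.7% of all genes called, and none passed for regorafenib or M2.

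Genes whose level followed that of a member most closely were sought among the 5739 genes that reached 100 counts in some library and spanned 2-fold, by Pearson r of log2 CPM over the 6 libraries, as a description. Itgal was followed by Cd82 (r = 0.999), Cxcl16 (0.996) and Parp8 (0.996), and Itgax by Chil3 (0.985), Scn3a (0.977) and Bhlhe40 (0.972). For Itga4 the nearest was Tmem170 (0.999), for Itga5 Siah2 (0.9997), for Itgav Hdac1 (0.9996), for Itgam Adamts1 (0.998), for Itgb1 Gm3375 (0.999) and for Itgb5 Fuca1 (0.998). For Cd44 it was Slc19a2 (0.988). Within the set, the pairs most alike were Itgam with Itgb1 and Itgal with Itga4 (both r = 0.983). The points of every pair come from the same 6 libraries, 2 of which received IFN-gamma and LPS.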

How the data were processed

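Whole-gene read counts deposited by the authors were used as given. Per the labels and the study's methods, paired reads of 100 bases from stranded TruSeq mRNA libraries were adapter-trimmed (cutadapt 2.4), aligned to the GRCm38 genome (STAR 2.7.2a) and counted over Gencode M19 genes with STAR's own counter, which drops reads that map to several places or overlap several genes. The strand column used is not given in the sources used here. Names were matched for 54409 of 54446 IDs.

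Counts were scaled by TMM (edgeR 4.0.16, R 4.3.3). Ratios carry exact 95% binomial counting intervals (SciPy), levels exact Poisson ones, both of counting error only. A gene was called at 2-fold among genes whose higher library held 10 counts or more, with counts of 3 or fewer set at 3. The main test was edgeR's quasi-likelihood fit with state and drug as terms, tested on simulated counts, with DESeq2 1.42.0 as an alternative. The study's no-replicate method was not used, since it rests on simulated replicates. In the search for similar genes, a count of 0 was set at 0.5. Alternatives were 2 other scalings, other folds, filters and tools, 1 added CPM, and other gene lengths.

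The 10 genes and all lists (other subunits, ligands, activators and adaptors, Cd44 partners, cell type and polarization markers) were chosen with earlier results of these data known. From each integrin and Cd44 list and comparison, values are from the 3 highest and 3 lowest ratios where the higher library held 100 counts or more, and for each member with a 2-fold range from the 3 genes with the highest r. Single cell type and polarization markers were named outside this rule, after their values were seen. A further searched promoter motif is not reported here. All 6 libraries were used.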

Additional observations from a re-analysis of the deposited data

Results flagged for a closer look

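The regorafenib ratio of 5 genes had opposite signs between states, with each counting interval excluding 0 under the 3 scalings (TMM, median-of-ratios, total counts). With 1 pair of libraries per state, the difference was not tested. How many of all genes meet the same rule was not counted. The log2 ratio in M1 exceeded that in M0 by 1.13 for Cd44, 1.09 for Itga5, 0.61 for Itgb1, 0.60 for Itgav and 0.51 for Itgb2. It exceeded that in M2 by 1.09 for Cd44, 0.67 for Itga5, 0.67 for Itgb1, 0.30 for Itgav and 0.29 for Itgb2. The positive side was small in each case, from 0.062 for Itgav to 0.21 for Itga5 in M1.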

How the results depend on the processing

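Among 150 log2 ratios of the members recomputed under other scalings or with 1 CPM added, 1 had the other sign (Itgb2 between M1 and M0 under total counts). None of the members past 2-fold in these 5 comparisons changed sign under them. Total counts, tried for the regorafenib libraries after seeing the data, gave 3 members in place of 7 for M1 against M0. Of all genes, 1680 were then 2-fold higher and 4378 lower, in place of 2311 and 3056. A 1.5-fold threshold gave 5 members in M0, 2 in M1 and 5 in M2 for regorafenib, 7 for M1 against M0 and 4 for M2 against M0, where 39.2%, 13.4%, 25.3%, 54.1% and 23.7% of all genes passed it in either direction. A 4-fold threshold gave 0, 0 and 0 members for regorafenib, 3 for M1 against M0 and 1 for M2 against M0, where 4.81%, 0.707%, 2.2%, 17.8% and 2.66% of all genes passed. With at least 100 counts, the genes past 2-fold numbered 1594 (M0), 176 (M1) and 655 (M2) for regorafenib, 3459 for M1 and 863 for M2, against 2851, 701, 1551, 5263 and 1700. In the additive fit, regorafenib calls went from 0 to 296 with DESeq2, 333 without a filter on low counts and 386 without the M1 libraries, and M2 calls from 28 to 413, 408 and 100. Without the M1 libraries Cd44 passed for regorafenib (-0.97, edgeR adjusted p = 0.0498), and without the filter Itgb5 did (adjusted p = 0.048). The cause of these shifts was not tested. The level of Itgb2 over that of Itgax per kilobase in M0 control was 159 with the longest transcript in place of 183 with all exons. The scaling of Itgam to unshared exon bases was chosen after seeing the data. Replicates could not be paired across groups, since each group holds 1 library. The additive fit compares drug and control within states. The variation between cultures is unknown.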
